A study of Mus musculus with 4 samples.

Results

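The genes described here were 9 components of the complement system: C3, Cfb, Cfd, C4b, C1ra, C1s1, C1qa, C1qb and C1qc. They were taken by symbol from the gene table of the libraries, where each symbol named 1 row, and so made up 9 of 31054 genes. All 4 libraries came from the stromal vascular fraction (SVF) of gonadal white adipose tissue (gWAT) of p16-CreERT2/R26-LSL-tdTomato mice aged 18 months, in which tamoxifen lets Cre driven from the p16 locus switch on the tdTomato reporter in cells that express p16. The cells were stained for CD31 and for CD45, the pan-leukocyte antigen encoded by Ptprc, sorted into 4 groups, 1 for each combination of CD45 (- or +) and tdTomato (Tom+ or Tom-), and read by single-cell RNA sequencing. All groups carried both alleles. Each group was 1 library, so nothing was tested across animals, and how many mice stood behind a library is not given in the sources used here.

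Complement is a set of secreted proteins that tag cells and debris for removal. In the classical route, C1q binds a target and the proteases C1r and C1s cut C4 and C2, while in the alternative route factor B (Cfb) and factor D (Cfd, also called adipsin) amplify the cleavage of C3, at which all routes meet. The liver makes most of the circulating proteins, C1q is known as a product of macrophages and related cells, and adipsin is known as a product of fat cells.

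After filtering and removal of likely doublets, 3886 Tom+ and 3674 Tom- cells were kept from the pair of libraries labelled CD45-, and 1927 Tom+ and 4391 Tom- cells from the pair labelled CD45+, 13878 in all, out of total counts of 64083756 to 139397501 unique molecular identifiers (UMIs) per library. Levels are given in UMIs per 1000000 UMIs of the cells summed (CPM) with 95% Poisson intervals, which cover counting error only. Lists of 4 values are in this order throughout. The tdTomato transcript stood at 713, 15.8, 714 and 18.7 CPM, and so followed the Tom labels. Cdkn2a, the gene that encodes p16, stood at 6.78, 7.10, 7.30 and 7.57 CPM and did not. These sums pool libraries that differed in cell makeup. Cdkn2a was found in 8.72%, 6.42%, 8.93% and 5.90% of cells, a higher share in the Tom+ library of both pairs. With every cell thinned to the same number of UMIs, the shares were 1.11%, 0.766%, 0.830% and 0.916%, with overlapping intervals in both pairs. By quantitative PCR, the paper reports higher p16 in Tom+ adipose progenitor cells. Ptprc stood at 217, 157, 223 and 188 CPM, so the CD45 labels did not divide leukocytes from other cells, and the pairs labelled CD45- and CD45+ are therefore treated below as a pair of Tom+ against Tom- comparisons in the same kinds of cells. Between 26 and 4394 cell barcodes were shared by a pair of libraries, most of them by the 2 Tom- libraries. In shared barcodes the deeper copy held a median of at least 15.1 times the UMIs of the shallower one in each pair of libraries. Few of them, 1 to 16 barcodes per pair, passed the filter in both libraries. Of the kept cells, however, 605, 1426, 220 and 1304 carried a barcode also present in another library. Whether the libraries are independent of each other was not tested. The larger changes seen with shared barcodes left out are given beside the results they touch.

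The cells formed 30 clusters, drawn with the complement genes and tdTomato left out. From markers that include no complement gene, 19 clusters were placed in 11 classes and 11 clusters, with 19.9% of the cells, were left unnamed. Adipose progenitor cells (APCs), recognised by Pdgfra, Dcn and collagen genes, formed an APC-like class of 262, 1532, 107 and 1717 cells. The macrophage-like class, recognised by Adgre1, Csf1r and Cd68, held 759, 570, 391 and 729 cells. A mesothelial-like class (Msln, Upk3b) held 72, 388, 30 and 400 cells. Cluster 6, with 177, 242, 90 and 227 cells, was led by Cxcl5, Cxcl13 and Clca3a2 and stayed unnamed because mesothelial and APC markers were raised in it alike.

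The promoters of members of both groups are shown because they let the sequence upstream of the stromal genes be read beside that of the macrophage genes. RefSeq promoters on GRCm38.p6 were found for 6 of the 9 members, C3, Cfd, C1ra, C1s1, C1qb and C1qc. Each line gives the 250 bases before the RefSeq transcription start, 5′ to 3′ on the strand of the gene. Capitals mark a match, on either strand, to TTNNGCAA (2 half-sites as bound by C/EBP factors) in C3 and C1s1 or to GAGGAA (a core bound by the myeloid factor PU.1) in C1qb and C1qc.
C3, chr17:57228137-57228386, minus strand: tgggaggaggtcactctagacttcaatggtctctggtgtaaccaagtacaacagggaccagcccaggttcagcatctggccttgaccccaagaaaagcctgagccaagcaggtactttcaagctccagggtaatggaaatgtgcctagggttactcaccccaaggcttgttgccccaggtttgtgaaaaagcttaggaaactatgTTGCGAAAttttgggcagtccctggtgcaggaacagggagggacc
C1s1, chr6:124542360-124542609, minus strand: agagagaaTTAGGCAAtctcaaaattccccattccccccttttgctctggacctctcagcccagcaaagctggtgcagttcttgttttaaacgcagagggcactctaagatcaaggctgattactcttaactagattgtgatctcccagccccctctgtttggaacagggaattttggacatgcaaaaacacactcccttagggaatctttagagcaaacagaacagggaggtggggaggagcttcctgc
C1qb, chr4:136886201-136886450, minus strand: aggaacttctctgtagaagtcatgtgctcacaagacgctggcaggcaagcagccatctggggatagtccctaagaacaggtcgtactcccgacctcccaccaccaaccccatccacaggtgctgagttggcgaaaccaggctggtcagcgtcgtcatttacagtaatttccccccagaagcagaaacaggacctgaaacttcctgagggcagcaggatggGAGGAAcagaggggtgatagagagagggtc
C1qc, chr4:136892915-136893164, minus strand: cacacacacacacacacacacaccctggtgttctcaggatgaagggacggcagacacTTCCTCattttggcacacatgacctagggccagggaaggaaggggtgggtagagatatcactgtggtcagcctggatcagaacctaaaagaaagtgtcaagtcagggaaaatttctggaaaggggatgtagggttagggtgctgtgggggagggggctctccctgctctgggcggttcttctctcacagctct
The C3 match began 45 bases before the start on the strand opposite to the gene, and the C1s1 match, from the second of 2 entries for that gene, began 242 bases before it. The C1qb match began 30 bases before the start and the C1qc match, again on the opposite strand, 193 bases before it. The C/EBP letters were found in 9.56% and the PU.1 letters in 23.3% of 32851 promoters of the same length, so neither sets these genes apart. The AP-1 letters TGANTCA (in 6.75% of promoters) and an interferon response element (in 2.98%) were found in none of the 7 entries for members, and the promoters of C1ra and Cfd held no match to any of the 4 motifs.

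On the mouse genome (GRCm38/mm10, GENCODE vM21), the 3 C1q genes lay side by side on the minus strand of chromosome 4, C1qb at 136880129-136886187, C1qc at 136889804-136893065 and C1qa at 136895917-136898803. The C1qc promoter printed above is counted from the RefSeq start and lies in part within the gene as placed here. C1ra (chr6:124512405-124523443, plus strand) and C1s1 (chr6:124530345-124542359, minus strand) were neighbours in opposite orientation. C4b (chr17:34728380-34743882) and Cfb (chr17:34856374-34862518) lay in the major histocompatibility region on the minus strand, C3 (chr17:57203970-57228136) farther along the same chromosome and strand, and Cfd at chr10:79890853-79892655 on the plus strand. C4b, C1ra and C1s1 each have a near-identical copy in the mouse (C4a, C1rb and C1s2), so a part of their counts may belong to the copy. In the deposited table C1rb reached at most 6.81 CPM and C1s2 at most 11.6 CPM in any class. C4a has no row in it, so its part in the C4b counts could not be checked.

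The first question was which cells held these transcripts. In every library, 5 members (C3, Cfb, C4b, C1ra and C1s1) stood at least 4 times higher in APC-like than in macrophage-like cells, and the 3 C1q chains stood at least 4 times higher in macrophage-like cells. Among all genes averaging 5 CPM or more over both classes, 13.4%, 14.5%, 13.9% and 14.3% were at least 4 times higher in APC-like cells, and 7.67%, 8.7%, 8.47% and 8.87% were at least 4 times higher in macrophage-like cells. Cfd followed neither group. The plot of levels by cell class shows this division for each gene.

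**Figure D1:**
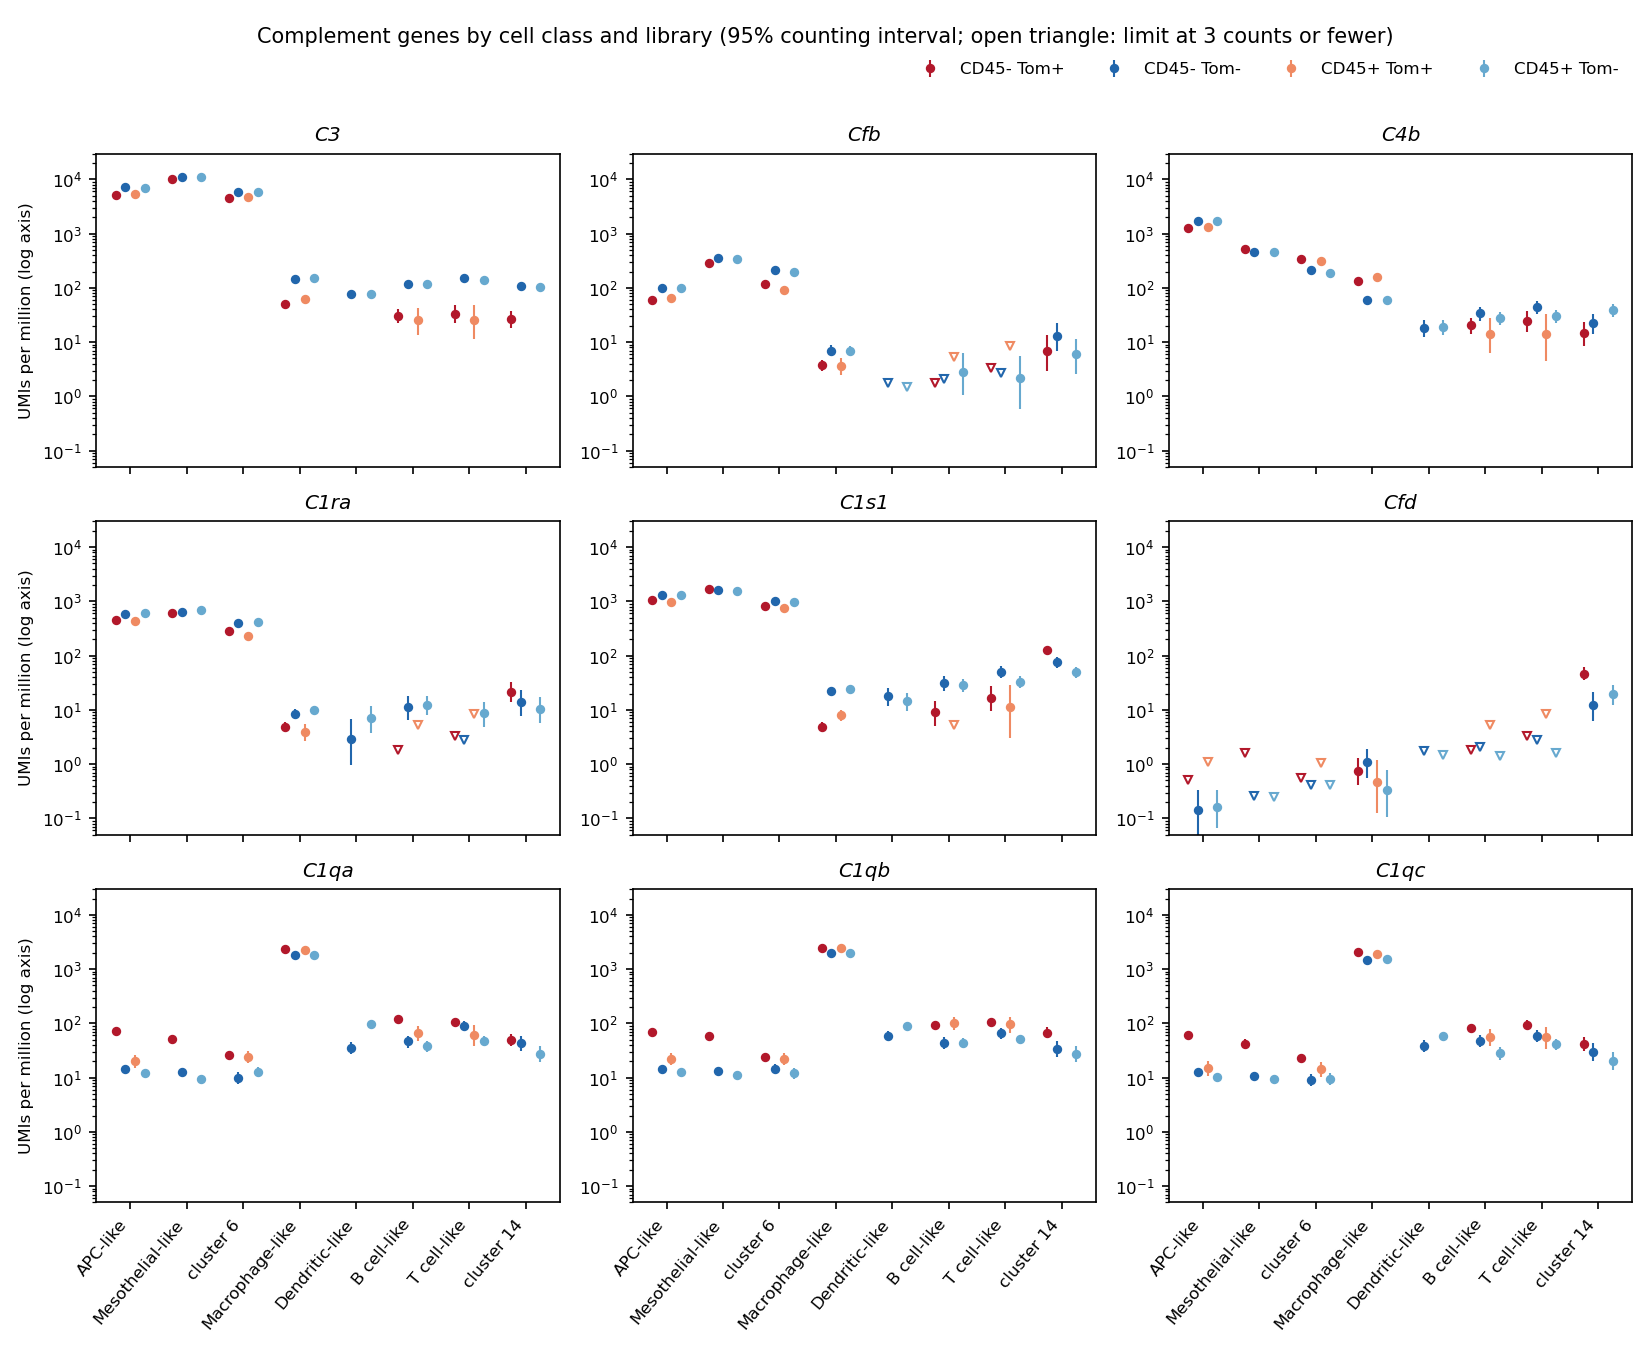
Level in CPM (log axis) of each member in 8 groups of cells, 1 point per library with its 95% Poisson interval, for groups of at least 50 cells; open triangles mark the level of 3 counts where 3 or fewer were seen. C3, Cfb, C4b, C1ra and C1s1 were high in the APC-like and mesothelial-like classes and cluster 6, the C1q chains in macrophage-like cells, and Cfd was highest in cluster 14.

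C3, the protein on which all routes of complement activation meet, was at 5198, 7224, 5392 and 6981 CPM in APC-like cells. It was higher in mesothelial-like cells, at 10158, 10996 and 11015 CPM in the 3 libraries that held 50 or more such cells (not CD45+ Tom+), and in cluster 6 it was at 4616, 5910, 4725 and 5907 CPM. These 3 groups of stromal cells were the main holders of C3 in every library. In macrophage-like cells C3 was at 51.1, 146, 62.7 and 154 CPM, against 33.5, 153, 25.3 and 137 CPM in T cell-like cells, a class that should lack it but that was shallower (5592 to 6585 against 18015 to 22175 UMIs per cell), so that free RNA weighs more in it. In plasma cell-like cells, which were deeper (35970 to 39400 UMIs, with only 39 cells in the CD45- Tom- library), C3 was at 13.8, 70.9, 9.59 and 50.5 CPM. The macrophage-like level was thus above that of the deeper class in every library, and above the counting limit of T cell-like cells in the Tom+ libraries only. The log2 ratio of APC-like over macrophage-like cells was 6.67, 5.62, 6.43 and 5.51. After each cell was thinned to 2000 UMIs, C3 was found in 88.5%, 96.5%, 92.5% and 95.1% of APC-like cells (median depth before thinning 21468 to 23434 UMIs), against 5.10%, 18.8%, 4.17% and 25.0% of B cell-like cells (5296 to 6506 UMIs). The thinned cells of the mesothelial-like class held C3 in 100% of cases in all 3 libraries. C3 was thus carried by nearly all cells of these classes and not by a few.

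Cfb, the protease subunit of the alternative C3 convertase, was highest in mesothelial-like cells, at 288, 355 and 339 CPM in the same 3 libraries. Cluster 6 followed with 120, 211, 92.5 and 199 CPM, and APC-like cells with 60.5, 99.2, 65.0 and 98.0 CPM. Macrophage-like cells had 3.75, 6.96, 3.63 and 6.94 CPM. The order of the stromal groups was therefore the same for Cfb as for the top of C3, with mesothelial-like cells first, but APC-like cells were lower than cluster 6 for Cfb in all 4 libraries and higher than it for C3. In thinned APC-like cells Cfb was found in 7.66%, 14.9%, 6.54% and 15.7%, and in thinned mesothelial-like cells in 40.8%, 49.9% and 43.5%, against at most 0.966% of B cell-like cells.

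The classical proteases C1ra and C1s1, which form the enzymatic part of the C1 complex, showed a like distribution. C1ra was at 445, 593, 437 and 605 CPM in APC-like cells, at 600, 647 and 680 CPM in mesothelial-like cells, and at 4.79, 8.50, 3.86 and 10.1 CPM in macrophage-like cells. C1s1 was at 1080, 1326, 974 and 1288 CPM in APC-like cells, at 1681, 1606 and 1586 CPM in mesothelial-like cells, and at 4.79, 22.1, 7.95 and 23.9 CPM in macrophage-like cells. For both genes the macrophage-like level lay at or below the upper counting limit of the shallower B cell-like or T cell-like cells of the same library. In plasma cell-like cells C1ra was at 1.54, 6.44, 1.05 and 4.68 CPM and C1s1 at 2.85, 17.9, 1.36 and 11.7 CPM, below the macrophage-like levels, with overlapping intervals in the CD45- Tom- library for both. In thinned APC-like cells C1s1 was found in 82.2% to 91.0% and C1ra in 58.2% to 67.9%, against at most 8.11% and 3.72% of B cell-like cells. Both transcripts were found together in 51.7%, 61.3%, 47.7% and 62.3% of the thinned APC-like cells. The product of the separate shares was 50.0%, 60.2%, 50.0% and 61.1%, so the 2 proteases met in the same cell about as often as their separate shares give.

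C4b, the complement C4 that C1s cuts, was distributed otherwise than the members above. It was highest in APC-like cells, at 1254, 1674, 1343 and 1738 CPM, and lower in mesothelial-like cells (514, 453 and 468 CPM) and in cluster 6 (345, 214, 307 and 192 CPM). In macrophage-like cells it was at 133, 60.9, 156 and 60.4 CPM, against 20.4, 33.8, 14.3 and 27.5 CPM in B cell-like cells, 24.6, 44.0, 14.1 and 30.1 CPM in T cell-like cells and 5.41, 25.1, 3.28 and 14.03 CPM in plasma cell-like cells. The excess was clear in the Tom+ libraries and small in the Tom- libraries, where the intervals overlapped that of T cell-like cells in the CD45- pair (to 58.3 CPM) and that of 60 NK-like cells in the CD45+ pair (55.4 CPM, to 81.8). The log2 ratio of APC-like over macrophage-like cells was 4.78 and 4.85 in the Tom- libraries and smaller in the Tom+ libraries, at 3.23 in the pair labelled CD45- and with an interval from 3.01 to 3.19 in the pair labelled CD45+.

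Cfd was the member whose level went against a stromal place. Over all kept cells it had 75, 42, 41 and 47 UMIs, which is 0.786, 0.563, 0.863 and 0.515 CPM. Over every deposited barcode it had 136, 169, 61 and 248 UMIs, or 0.976, 1.53, 0.952 and 1.82 CPM, higher than over kept cells, most of all in the Tom- libraries. In APC-like cells 0 UMIs were counted in both Tom+ libraries, where 3 counts, the limit set here for a count of 0, would be 0.502 CPM in the CD45- Tom+ library, and 0.142 and 0.165 CPM were measured in the Tom- libraries. Among groups of at least 50 cells the highest level was in cluster 14, led by Rbp7, Aqp7 and Gpihbp1 and carrying endothelial and mural markers together. There Cfd was at 46.8, 12.1 and 19.2 CPM in the 3 libraries with at least 50 of its cells. Cluster 14 held 72.0%, 28.6%, 78.0% and 55.3% of the Cfd UMIs of the 4 libraries. Mature fat cells float and are left out of the SVF. Over all kept cells, the adipocyte markers Adipoq, Plin1, Cidec and Pck1 were at most 1.79, 2.69, 1.16 and 1.70 CPM. The adipocyte marker Lep was at 0.304, 8.76, 0.463 and 0.230 CPM, and Plin4 at 1.88, 8.61, 2.63 and 8.07 CPM. A part for any cell type in the Cfd counts was not tested.

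C1q is built from 3 chains, and C1qa, C1qb and C1qc were high in the same classes. C1qa was at 2399, 1818, 2239 and 1860 CPM in macrophage-like cells, C1qb at 2477, 1964, 2463 and 2019 CPM, and C1qc at 2031, 1465, 1916 and 1512 CPM. No other named class came near these levels, while the unnamed cluster 22, with T cell and macrophage markers together, had C1qa at 2337, C1qb at 2581 and C1qc at 2071 CPM in the CD45- Tom+ library, the last 2 above macrophage-like cells. In APC-like cells the chains were at 61.0 to 71.5 CPM in the CD45- Tom+ library and at 10.3 to 22.2 CPM in the other 3. These values lay below those of the shallower B cell-like and T cell-like cells in the same library, which for C1qa were 119 and 105, 46.5 and 88.9, 66.3 and 61.9, and 38.0 and 47.3 CPM. Against classes of like or greater depth the picture differed in the CD45- Tom+ library, where C1qa was at 71.5 CPM in APC-like cells, 26.4 CPM in cluster 6, 39.3 CPM in lymphatic endothelial-like cells and 22.3 CPM in plasma cell-like cells. Whether free RNA accounts for C1q in APC-like cells was not tested. In thinned macrophage-like cells all 3 chains were found together in 75.5%, 58.6%, 73.7% and 60.9%, against 63.8%, 37.4%, 62.5% and 39.1% from the product of the separate shares. The chains thus met in the same cells more often than their separate shares over the class give. Between 4.35% and 16.1% of macrophage-like cells showed none of them at this depth. The class pools unlike clusters, with all 3 chains in 39.5%, 36.1%, 44.1% and 35.6% of cells of cluster 7, described below. In clusters 8, 11 and 13 the share was 58.8% to 86.5%. The part of this mixing in the excess over the product was not tested.

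As shares of all UMIs of a gene set, the division was as clear but not complete. Of the C1q UMIs, 72.9%, 86.0%, 68.3% and 85.9% came from macrophage-like cells, which were 15.5% to 20.3% of the cells. These shares depended on the clustering: for C1qa the lowest over all settings were 50.8%, 46.1%, 50.3% and 48.5%. With shared barcodes left out the C1qa shares were 80.1%, 68.5%, 75.5% and 72.2%, so that the order of the Tom+ and Tom- libraries turned in both pairs. Cluster 17, in which plasma cell and macrophage markers were raised together, held a further 12.0% and 17.2% in the Tom+ libraries. The summed stromal members (with Cfd) came to 34.8%, 63.3%, 33.1% and 66.0% from APC-like cells. For C3 alone, the share was 32.5%, 59.6%, 30.7% and 62.0%, and without shared barcodes it was 43.6%, 71.7%, 41.3% and 70.8%. In the Tom+ libraries, where APC-like cells were 6.74% and 5.55% of the cells against 41.7% and 39.1% in the Tom- libraries, cluster 6 held 24.4% and 25.6%. Cluster 24, which carried APC and plasma cell markers together, held 15.9% and 10.7% there. Clusters 17, 19, 22 and 24 each carried markers of more than 1 class, and whether their droplets held more than 1 cell was not tested.

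**Figure D2:**
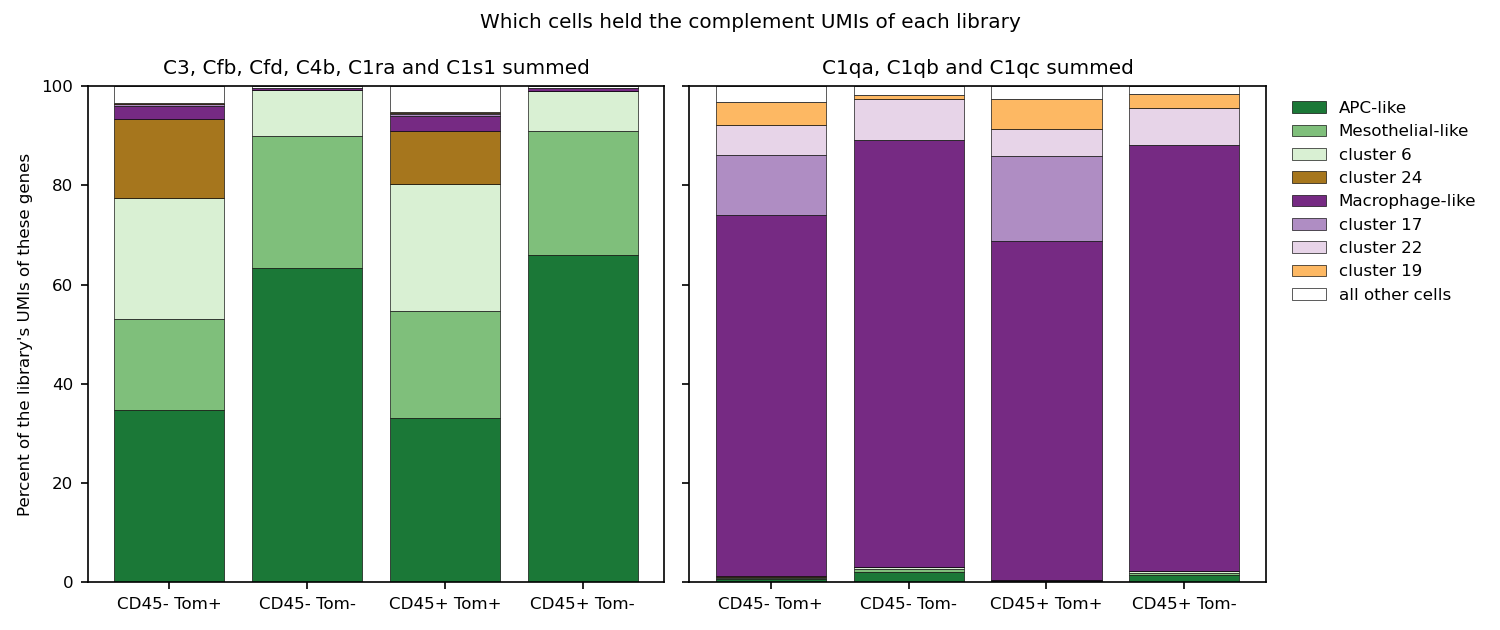
Percent of each library's UMIs that came from each group of cells (stacked to 100%), for the 6 stromal members summed (left) and the 3 C1q chains summed (right). Stromal UMIs sat in APC-like and mesothelial-like cells and cluster 6, with 34.8% and 33.1% from APC-like cells in the Tom+ libraries against 63.3% and 66.0% in the Tom- libraries, and C1q UMIs sat mostly in macrophage-like cells.

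Across the 51 sums of 1 class in 1 library, the likeness of patterns followed the same division. Pearson's r of log2(CPM + 1) was 0.99 for each pair of C1q chains. C3 had an r of 0.96 with C1s1, 0.95 with C1ra, 0.93 with Cfb and 0.86 with C4b, and Cfd had an r between -0.20 and 0.11 with every other member. The genes outside complement with the most similar pattern were Dcn for C3 (r = 0.985), Rspo1 for Cfb (0.946), Cxcl1 for C4b (0.916), Ccdc80 for C1ra (0.966) and Col1a2 for C1s1 (0.979). For all 3 C1q chains it was Ms4a7 (0.968 to 0.975). For Cfd it was Slc1a1 (0.910), over levels that were mostly near 0. These sums share libraries and depth, so the values are a description only.

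Among APC-like cells the members were not spread evenly over clusters. Cluster 2, led by Cpxm2, Ptx3, Sfrp1 and Il6, had the highest C3, at 9744, 11389 and 11439 CPM in the 3 libraries with at least 50 of its cells (not CD45+ Tom+). Cluster 0 (Inmt, Mmp11) had 5513, 7420, 5760 and 6912 CPM. Cluster 3 (Fgf10, Col8a1, Cthrc1) had 2541, 3832 and 3801 CPM, and cluster 21 (Pi16, Sema3c), which carried the markers of interstitial progenitors, had 2852 and 2838 CPM in the Tom- libraries. C3 thus differed more between APC clusters than between libraries within a cluster. Cfb was also highest in cluster 2, at 119, 181 and 180 CPM, against 36.8 to 66.9 CPM in the other 3 clusters. C4b followed another order. It was alike in clusters 0 and 2, at 1545 to 2167 CPM, then 833 to 1191 CPM in cluster 3 and 237 and 321 CPM in cluster 21. C1s1 varied least, between 879 and 1491 CPM over the 4 clusters.

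Macrophage-like cells differed in C1q level and in the chain with the most UMIs. Cluster 7, led by F10, Clec4e and Arg1, had the least, with summed chains at 3088, 2483, 3370 and 2477 CPM. Cluster 8 (Gpnmb, Atp6v0d2, Mmp12), cluster 11 (Marco, Vsig4, Cd5l) and cluster 13 (Cd209f, F13a1, Fcna) had summed chains of 6069 to 8562 CPM. The assay counts molecules at the 3′ end, and genes can still differ in capture, so the share of each chain is compared between clusters. In cluster 8 C1qb gave 42.5% to 44.6% of the C1q UMIs and C1qa 27.5% to 29.0%. In cluster 11 the order was turned, with C1qa at 41.9% to 43.7% and C1qb at 23.4% to 26.4%. Each range covers the 4 libraries, and the ranges of the 2 clusters did not overlap for either chain.

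**Figure D3:**
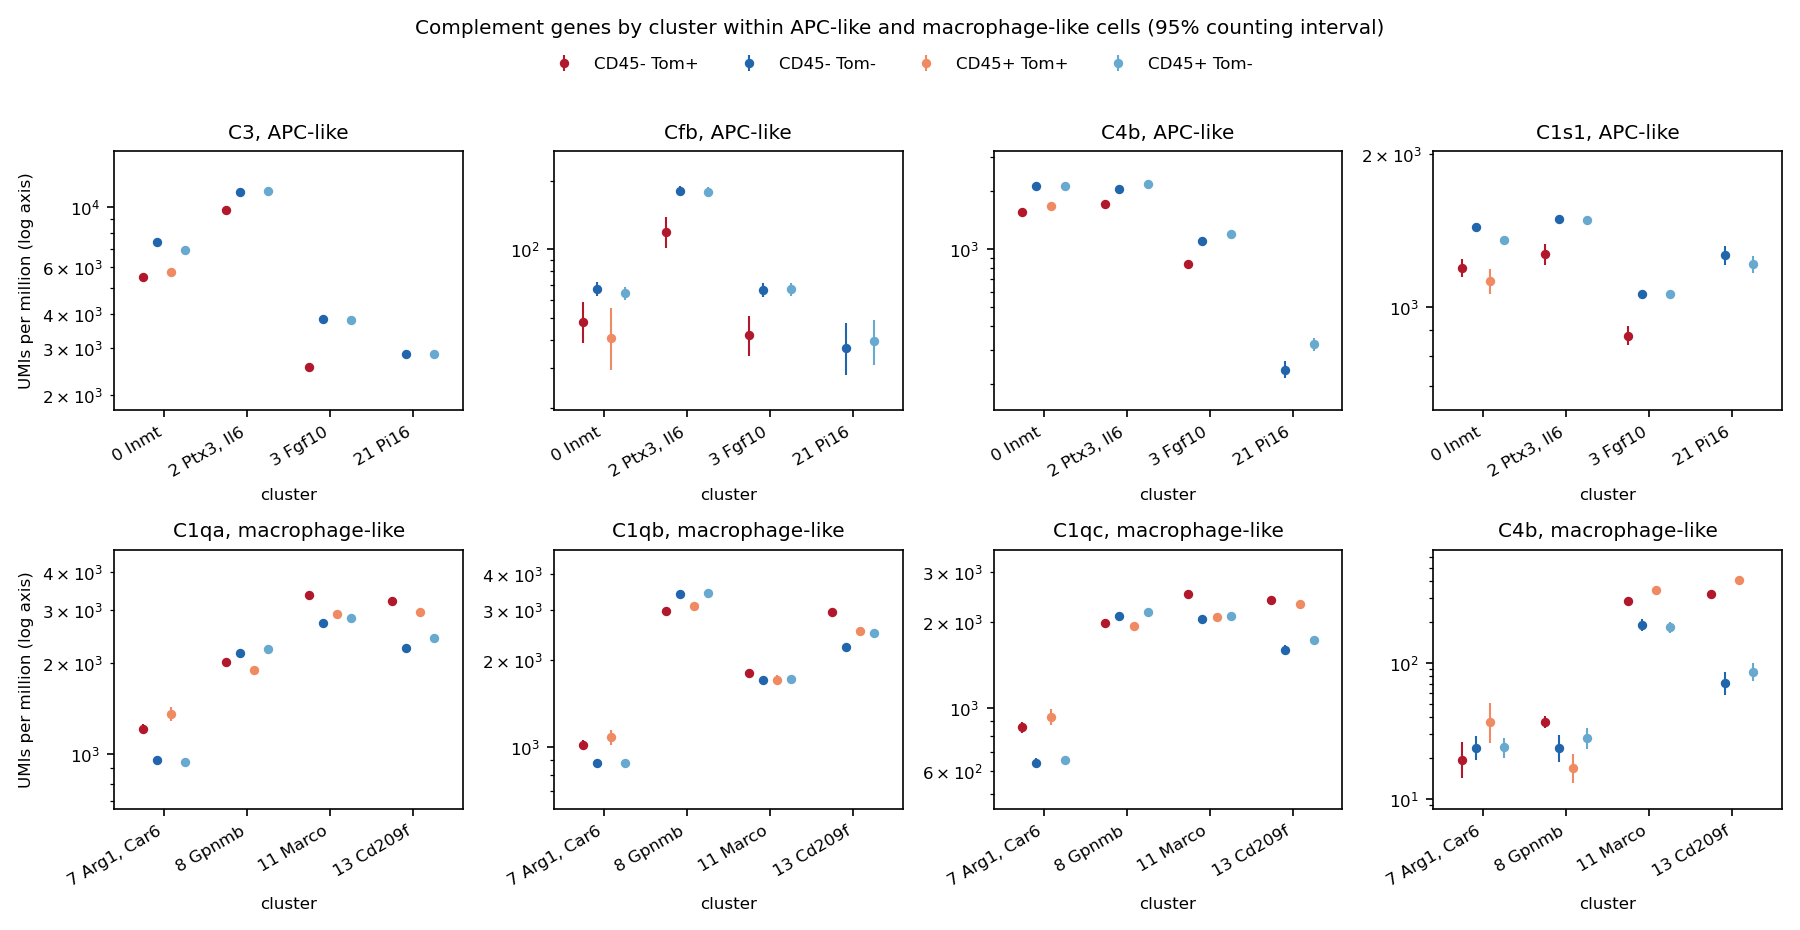
Level in CPM (log axes) of C3, Cfb, C4b and C1s1 in 4 APC-like clusters (top) and of C1qa, C1qb, C1qc and C4b in 4 macrophage-like clusters (bottom), 1 point per library with its 95% Poisson interval, for clusters of at least 50 cells in the library. Cluster 2 had the highest C3 and Cfb of the APC-like clusters, cluster 7 the lowest C1q chains, and C4b was highest in clusters 11 and 13, where both Tom+ libraries lay above both Tom- libraries.

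The second question was how the members differed between Tom+ and Tom- libraries, since the reporter was meant to mark cells with high p16. Over all kept cells C3 was at 1001, 5721, 1001 and 5228 CPM, and all 5 expressed stromal members were lower in the Tom+ libraries by 2.35 to 2.67 on the log2 scale. The C1q chains were higher by 0.70 to 1.07. So 7 members passed a 2-fold difference in the pair labelled CD45- and 5 in the pair labelled CD45+, where 23.2% and 21.2% of all genes of at least 5 CPM did, and the median gene differed by -0.46 and -0.47. The libraries also differed in their makeup, with APC-like cells at 6.74% and 5.55% in the Tom+ libraries against 41.7% and 39.1%. Fewer cells of a type and less RNA per cell cannot be told apart in these sums, so the members were compared within classes. Without shared barcodes 5 members passed in each pair.

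Within APC-like cells the stromal members were lower in the Tom+ library in both pairs, by less than 2-fold at full depth. C3 differed by -0.47 (95% interval from -0.49 to -0.46) on the log2 scale in the pair labelled CD45- and by -0.37 (from -0.40 to -0.35) in the pair labelled CD45+. Cfb differed by -0.71 and -0.59, C4b by -0.42 and -0.37, C1ra by -0.41 and -0.47, and C1s1 by -0.30 and -0.40. The median of all genes was -0.03 and -0.04. All 5 were lower than the median gene in both pairs, but the share of all genes lower by as much was not counted. The 5 also had like patterns across classes, so they are not 5 separate observations. C3 had lower values in Tom+ cells within each of clusters 0, 2 and 3 in the pair labelled CD45- (9744 against 11389 CPM in cluster 2). With both libraries set to the same mix of APC-like clusters, the C3 difference was -0.36 and -0.28. With shared barcodes left out it was -0.50 and -0.31, and that of Cfb in the pair labelled CD45+ was -0.13. After thinning to 2000 UMIs, Cfb differed by -1.24 and -1.59, past 2-fold in both pairs. These thinned ratios rest on few counts. Cfb was found in 7.66% of 261 and 6.54% of 107 thinned Tom+ cells, with at most 1 UMI in a cell. Without replicate libraries, these intervals do not cover the spread between animals or sorts.

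The members past 2-fold in APC-like cells were the 3 C1q chains in the pair labelled CD45-, at 2.25 to 2.32, and none in the pair labelled CD45+, where they were at 0.52 to 0.79. Of all genes, 1.68% and 1.58% were past it. With shared barcodes left out, the chains in the pair labelled CD45- were at 1.32 to 1.53. The chains were not higher in Tom+ APC-like cells alone. In the same pair C1qa, C1qb and C1qc were at 1.35, 1.10 and 0.76 in B cell-like cells. They were at 0.24, 0.67 and 0.68 in T cell-like cells, and at 1.42, 0.68 and 1.34 in cluster 6. Among APC-like clusters of at least 50 cells, the level in the CD45- Tom+ library was highest in cluster 3, with C1qa at 91.1 against 10.8 CPM in the Tom- library. The summed 9 macrophage markers moved alongside, at 112, 38.5, 48.4 and 37.3 CPM in APC-like cells, with Cd163 at 0 in the library labelled CD45+ Tom+ and no other marker at 0. The 6 plasma cell markers summed to 2020, 386, 2856 and 372 CPM in the same cells, with none at 0. Their part in the difference was not tested.

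**Figure D4:**
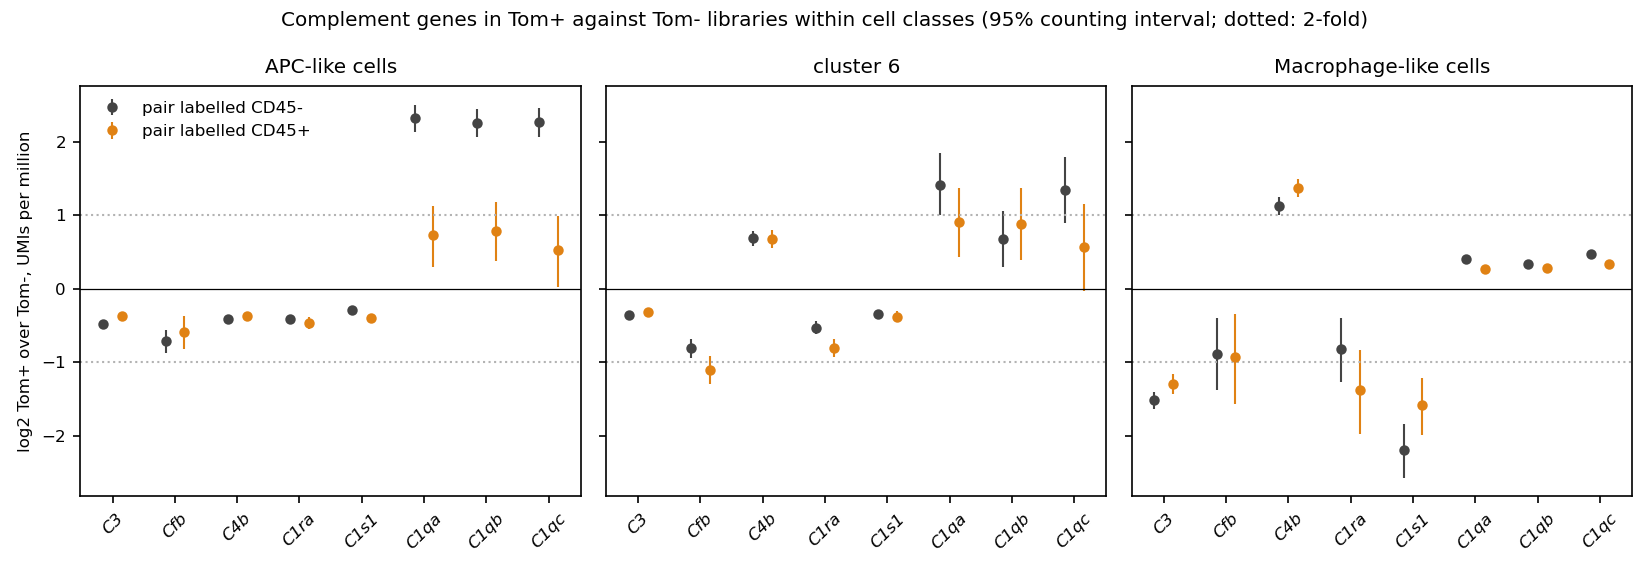
Log2 of Tom+ over Tom- CPM for 8 members (Cfd left out for its counts) in APC-like cells, cluster 6 and macrophage-like cells, for the pair of libraries labelled CD45- (grey) and the pair labelled CD45+ (orange), with 95% intervals of a ratio of Poisson counts; dotted lines mark 2-fold. In APC-like cells all 5 stromal members lay between -0.71 and -0.30, whereas in macrophage-like cells C4b lay at 1.13 and 1.37 and C3 at -1.52 and -1.29.

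In cluster 6 the same stromal members were lower in Tom+ cells, apart from C4b. C3 differed by -0.36 and -0.32, Cfb by -0.81 and -1.10, C1ra by -0.53 and -0.80, and C1s1 by -0.35 and -0.38. C4b was higher by 0.69 and 0.68, at 345 against 214 CPM and 307 against 192 CPM. The median gene differed by -0.06 and -0.04, and the library labelled CD45+ Tom+ had 90 cells here, under the 100 asked for in classes. C4b thus went one way in cluster 6 and the other way in APC-like cells in both pairs.

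In macrophage-like cells 3 members were past 2-fold in the pair labelled CD45- (C3, C1s1 and C4b) and 4 in the pair labelled CD45+ (C1ra in addition), where 2.16% and 2.54% of all genes were. C3 differed by -1.52 and -1.29 and C1s1 by -2.20 and -1.59, from the low levels given above. In B cell-like cells of the pair labelled CD45-, C3 differed by -1.93 and C1s1 by -1.79, and the summed 10 APC markers in macrophage-like cells were 348, 657, 355 and 714 CPM, with none at 0. The lower C3 and C1s1 therefore went with lower stromal transcripts in other leukocytes of the same libraries, and their part was not tested. C4b went the opposite way, higher in Tom+ macrophage-like cells by 1.13 (from 1.01 to 1.26) and 1.37 (from 1.25 to 1.50), although in B cell-like cells of the pair labelled CD45- it was lower by 0.73 on the log2 scale. With shared barcodes left out before clustering, C4b differed by 0.29 and 0.67, so the size of the class-wide difference depended on which cells made up the class.

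The higher C4b of Tom+ macrophage-like cells lay mostly in cluster 13, led by Cd209f and with Mrc1 and Fcna among its top genes. The cluster held 159 and 88 cells in the Tom+ libraries and 85 and 119 in the Tom- libraries, and comparisons within clusters asked for 50 cells in each library. There C4b was at 319 and 404 CPM in the Tom+ libraries and at 70.8 and 85.4 CPM in the Tom- libraries, a log2 difference of 2.17 (from 1.89 to 2.47) and 2.24 (from 1.999 to 2.49). With shared barcodes left out of the same clusters it was 2.14 and 2.06. In cluster 11 it was at 284 and 341 against 190 and 183 CPM, a difference of 0.58 and 0.90, or 0.47 and 0.63 without shared barcodes. Clusters 7 and 8 had 16.9 to 36.9 CPM, near the level of B cell-like cells, and no direction shared by both pairs. After thinning, C4b was found in 28.9%, 8.24%, 36.4% and 11.0% of cluster 13 cells and in 41.1%, 21.2%, 46.2% and 30.8% of cluster 11 cells, against 5.61%, 8.70%, 6.94% and 6.42% of B cell-like cells (median depths 16232 to 18008, 14042 to 18944 and 5296 to 6506 UMIs). In cluster 13 the Tom- shares were thus close to those of B cell-like cells and the Tom+ shares above them. Before thinning, the top 10% of cluster 13 cells held 53.8%, 70.6%, 51.7% and 74.6% of its C4b UMIs. The intervals above cover counting error only and not this spread between cells.

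Other values in cluster 13 moved with C4b. The UMI ratio of C4b to C3 was 6.08, 0.41, 10.7 and 0.58, against 0.67, 0.29, 0.57 and 0.23 in B cell-like cells, and the APC markers summed to 333, 560, 247 and 609 CPM, lower where C4b was higher. Fcna, a ficolin that starts the lectin route, was at 359, 41.6, 650 and 43.9 CPM. The summed resident markers Timd4, Marco, Lyve1, Folr2 and Cd163 were at 612, 231, 894 and 291 CPM in cluster 13, and at 1642, 706, 1720 and 1025 CPM in cluster 11. So the Tom+ cells of both clusters also differed from the Tom- cells in subset markers, whose part in the C4b difference was not tested.

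**Figure D5:**
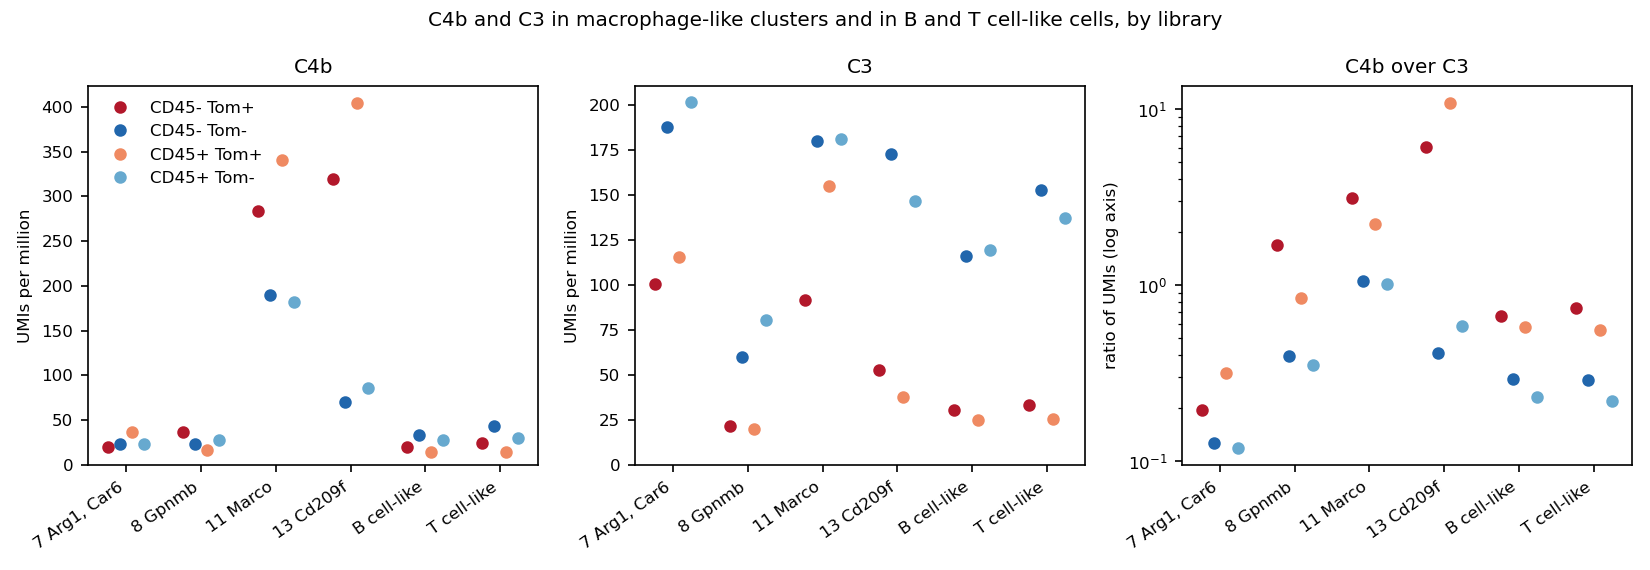
C4b (left) and C3 (middle) in CPM and the ratio of their UMIs (right, log axis) in 4 macrophage-like clusters and in B and T cell-like cells, 1 point per library. C4b was highest in clusters 11 and 13 of the Tom+ libraries, at 284 to 404, while C3 was lower in the Tom+ than in the Tom- libraries in each of the 6 groups.

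The C1q chains were higher in Tom+ macrophage-like cells, C1qa by 0.40 and 0.27, C1qb by 0.33 and 0.29, and C1qc by 0.47 and 0.34, against a median gene of -0.05 and -0.07. This difference did not hold across settings: it turned in 4 alternatives for C1qa in the pair labelled CD45+, among them the one without cluster 7, at -0.05. Cluster 7, the cluster with the least C1q, gave 114 of 759 and 59 of 391 macrophage-like cells in the Tom+ libraries against 244 of 570 and 317 of 729 in the Tom- libraries. Within clusters the sign varied. In cluster 7 C1qa differed by 0.34 and 0.52, and in cluster 13 by 0.52 and 0.28. In cluster 8 it differed by -0.10 and -0.23.

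The rest of the complement system was read from a list of 46 further genes, of which 45 were in the table and 20 reached 20 CPM in the same class in all 4 libraries. Of the initiators and proteases 3 of 13 did. C2, the second substrate of C1s, was at 108 to 146 CPM in APC-like cells and at 1.05 to 3.47 CPM in macrophage-like cells. Its highest level in any class was 576 CPM, in neither of these. Only classes with at least 50 cells in all 4 libraries were ranked, which leaves out mesothelial-like cells (30 in CD45+ Tom+). Fcna was at 34.6 to 194 CPM in macrophage-like cells. Of the alternative and terminal components 2 of 8 did, properdin (Cfp), which stabilises the alternative convertase, at 240 to 288 CPM in macrophage-like cells and C7 at 41.4 to 61.6 CPM in APC-like cells. The other terminal components did not reach this level in any class in all libraries. Of the inhibitors 6 of 14 did. Serping1, the inhibitor of C1r and C1s, was at 2258 to 2867 CPM in APC-like cells and at 5.88 to 23.5 CPM in macrophage-like cells, so it lay in the same cells as its targets. Clu was at 1594 to 2085 CPM in cluster 6. Of the receptors 9 of 10 did, most of them in macrophage-like cells, with C3ar1 (the C3a receptor) at 396 to 492 CPM, C5ar1 at 315 to 363 CPM and the C3b receptor Vsig4 at 87.8 to 241 CPM. C5ar1 reached 783 CPM in another class. Cr2, the receptor of C3d, was at 37.6 to 76.0 CPM in B cell-like cells.

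These further genes showed the directions of the members between Tom+ and Tom- libraries in some cases only. In APC-like cells Serping1 differed by -0.29 and -0.29 and C2 by -0.42 and -0.37, while Colec12 differed by -0.07 and -0.04. In macrophage-like cells Fcna differed by 1.79 and 2.49, Vsig4 by 1.28 and 1.41 and C3ar1 by 0.31 and 0.23, and Itgam by -0.58 and -0.52. Fcna and Vsig4 are also genes of clusters 13 and 11, whose shares and markers differed between the libraries.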

How the data were processed

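The authors sorted SVF cells of gWAT, made 10x Genomics 3′ libraries, and deposited for each library a matrix of UMI counts per gene and barcode, made with Cell Ranger 3.0.2 on mm10 with a tdTomato row per the labels and methods; these counts are raw. The label protocol names CD45- Tom- cells a second time and CD45+ Tom- cells not at all, while the sample titles name both, and groups follow those titles. The 9 members and all gene and marker lists were chosen with earlier results of these data known.

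Cells with 1000 to 7000 genes and under 8% mitochondrial UMIs were kept, as in the study, and the top Scrublet scores (scanpy 1.11.5) were removed at 0.8% per 1000 barcodes. Clusters came from 2000 variable genes, 30 principal components, 15 neighbours and Leiden resolution 1 (leidenalg 0.10.2), without complement genes or tdTomato. A cluster was named when at least 3 markers were raised 4 times and to 20 CPM unless markers of a second class came close in number or held more of its 10 top genes. UMIs were summed by class and library, and ratios carry exact conditional Poisson intervals (scipy 1.17.1), which cover counting error only. With 1 library per group no test was run, and called means past 4 times between classes or 2 times between Tom+ and Tom- libraries, among genes averaging at least 5 CPM. Levels and comparisons within clusters needed 50 cells, and Tom comparisons of a class 100 cells. Named genes were the members, the other complement genes that reached 20 CPM in some class in all 4 libraries, and the genes most correlated with each member. Intervals and calls were checked on counts simulated from the same Poisson model that the intervals assume. The check therefore does not cover spread between cells, animals or libraries. The alternatives were a looser cell filter, doublets kept, 4000 variable genes, Leiden resolution 2, equal weight of cells, thinning to 2000 UMIs, shared barcodes left out, 1 mix of clusters and a fold of 2 in place of 4. The UMI counts of cells kept rest on a median of 18331 to 19516 UMIs per cell.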

Additional observations from a re-analysis of the deposited data

Results flagged for a closer look

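C4b went opposite ways in groups of cells under the same Tom+ against Tom- contrast, and the difference between the groups was not tested. On the log2 scale it was higher in Tom+ macrophage-like cells by 1.13 in the pair of libraries labelled CD45- and by 1.37 in the pair labelled CD45+. In cluster 6 it was higher by 0.69 and 0.68. In APC-like cells the values were -0.42 and -0.37. Beside these, the resident macrophage markers Timd4, Marco, Lyve1, Folr2 and Cd163 summed to 612 and 894 CPM in Tom+ cells of cluster 13 against 231 and 291 CPM in Tom- cells, and their part in the C4b values was not tested.

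The C1q chains went opposite ways between macrophage-like clusters, again with no test of the difference. C1qa was higher in Tom+ cells of cluster 7 by 0.34 and 0.52 and of cluster 13 by 0.52 and 0.28, and in cluster 8 the values were -0.10 and -0.23. C1qb was higher in cluster 7 by 0.21 and 0.30, and in cluster 8 the values were -0.20 and -0.15. C1qc was higher in cluster 7 by 0.41 and 0.51 and in cluster 13 by 0.59 and 0.41, and in cluster 8 the values were -0.072 and -0.16. Groups of 1 library allowed no search for outlying samples.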

How the results depend on the processing

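The division held in every alternative run. In each library 5 members stood at least 4 times higher in APC-like cells and 3 in macrophage-like cells. A fold of 2 could not change these counts. These members were past 4 times already, and Cfd was under the 5 CPM asked for. The count of members past 2-fold between Tom+ and Tom- APC-like cells, 3 in the pair labelled CD45-, was 1 with doublets kept, and the count in the pair labelled CD45+, 0, was 3 under the looser filter and 3 after thinning to 2000 UMIs. These were C1q chains, apart from Cfb after thinning (-1.24 and -1.59), which rests on few counts in the Tom+ libraries. Log2 differences in macrophage-like cells turned in sign in some settings. With doublets kept they were 0.098 for Cfb, -0.031 for C1qa, -0.21 for C1qb and -0.032 for C1qc in the pair labelled CD45-, and -0.080, -0.18 and -0.064 for C1qa, C1qb and C1qc in the pair labelled CD45+. With 4000 variable genes they were -0.074 for C1qb in the first pair and -0.11, -0.14 and -0.018 for C1qa, C1qb and C1qc in the second. With shared barcodes left out they were -0.011 for C1qa in the first pair and -0.22, -0.10 and -0.11 for the 3 chains in the second. Among settings chosen after seeing the data, they were -0.049, -0.050 and -0.0030 without cluster 7 and -0.0096 for C1qb with 1 mix of macrophage-like clusters, all in the second pair. The cause was not tested. C4b was higher in Tom+ macrophage-like cells in each setting run, at 0.29 to 1.41 and 0.67 to 1.71, lowest with shared barcodes left out. Leaving out only the shallow copies of shared barcodes, also chosen after seeing the data, changed no value beyond its interval. This took out only 24, 12, 0 and 31 kept cells, too few to move the sums much. It therefore does not show what the other shared barcodes do. The share of C1qa UMIs in macrophage-like cells was at its lowest 50.8%, 46.1%, 50.3% and 48.5%. Shares of UMIs were not recomputed under equal weight of cells or thinning. No paired analysis was possible because each group was 1 library. Depth limits Cfd, at 41 to 75 UMIs per library.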
